A study of Mus musculus with 9 samples.

Results

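Linker histones, the H1 proteins, were followed through female germ cell development as 9 genes named by symbol: H1foo, H1f0, H1fx, Hist1h1a, Hist1h1b, Hist1h1c, Hist1h1d, Hist1h1e and Hist1h1t. Each symbol matched 1 of the 37980 gene rows in the deposited tables. RNA was sequenced from mouse cells, with 3 libraries of E12.5 PGCs and 2 libraries each of FGSCs, of GV oocytes and of MII oocytes, all labelled as female C57BL/6 cells at passage 0. E12.5 PGCs are primordial germ cells of embryonic day 12.5, FGSCs are female germline stem cells, GV oocytes are arrested in prophase with an intact germinal vesicle, and MII oocytes are arrested at metaphase of the second meiotic division. The study set gene expression in these cells side by side across development of the germline.

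By the study's methods, E12.5 PGCs and FGSCs came from Mvh-cre;ROSA mT/mG mice, in which Cre driven by the germ cell gene Mvh turns on a green fluorescent reporter. PGCs were sorted from dissociated XX genital ridges as MVH+ cells, and FGSCs were sorted as fluorescent cells from ovaries of mice in the first week of life. Fully grown oocytes, taken here as the samples labelled GV oocytes, came from young adult C57BL/6 females primed with gonadotropin and were stripped of cumulus cells, and the source of the MII oocytes is not described there. The reporter stays on in every descendant of a cell in which Cre was active, so the sort marks a lineage and not a state.

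H1 binds the nucleosome where DNA enters and leaves it and helps fold the chromatin fibre. Somatic H1 genes of the Hist1 cluster are replication-dependent: they are transcribed in S phase, and their mRNA ends in a stem-loop in place of a poly(A) tail. H1f0 and H1fx are replacement forms with polyadenylated mRNA, Hist1h1t is the H1 of spermatocytes, and H1foo is the linker histone of the oocyte, which is kept into the early embryo and takes its place on the incoming sperm chromatin.

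The labels state that cDNA was primed with oligo(dT), so the ends of the transcripts are shown first. In GENCODE M21, a histone stem-loop (a 6-base stem beginning with GG around a 4-base loop beginning with TTT, with every base of the stem paired) was found in the transcripts of 4 of the 9 genes, against 68 of 21877 protein-coding genes (0.311%) and 40 of 61 replication-dependent core histone genes (65.6%). The capitals mark stem and loop, and the other letters are the flanking bases of the transcript, all on chromosome 13:
Hist1h1c: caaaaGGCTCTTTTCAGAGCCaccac
Hist1h1d: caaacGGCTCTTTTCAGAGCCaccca
Hist1h1e: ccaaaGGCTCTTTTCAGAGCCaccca
Hist1h1t: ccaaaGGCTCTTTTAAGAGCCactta

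The stem-loop was identical in 3 members (Hist1h1c, Hist1h1d and Hist1h1e), and Hist1h1t had a form of its own. The annotated transcripts ran on past it, by 840 bases in Hist1h1c, 4884 in Hist1h1d, 1153 in Hist1h1e and 185 in Hist1h1t. Hist1h1c and Hist1h1t then had a poly(A) signal (AATAAA or ATTAAA) in their last 50 bases, and Hist1h1d and Hist1h1e had none. The transcript of Hist1h1a ended within such a stem-loop, of which it held all but the last base, so it was not counted. That of Hist1h1b, at 743 bases, held no match. H1foo, H1f0 and H1fx had no stem-loop and had a poly(A) signal in at least 1 transcript, which made 5 of 9 linker histone genes with the signal, against 77.9% of protein-coding genes and 15 of 61 core histone genes. The part of oligo(dT) priming in the levels given, for the Hist1 genes or any other, was not tested.

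The starts of all 9 genes matched a RefSeq promoter of GRCm38.p6. The 4 shown are those of the oocyte form and of 3 Hist1 genes, the highest of the 6 Hist1h1 genes in GV oocytes (Hist1h1c), in both early cell types (Hist1h1b) and in MII oocytes (Hist1h1a). They are the 180 bases before the start of transcription, from chr6:115944751-115944930 (plus strand), chr13:23738627-23738806 (plus), chr13:21780626-21780805 (minus) and chr13:23763488-23763667 (plus), with capitals for matches on either strand to TATAAA, to CCAAT or to AAACACA, the H1 box of somatic H1 promoters:
H1foo: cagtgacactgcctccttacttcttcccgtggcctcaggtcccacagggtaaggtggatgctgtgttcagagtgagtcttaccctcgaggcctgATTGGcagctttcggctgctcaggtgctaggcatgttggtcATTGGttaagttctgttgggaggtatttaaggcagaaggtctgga
Hist1h1c: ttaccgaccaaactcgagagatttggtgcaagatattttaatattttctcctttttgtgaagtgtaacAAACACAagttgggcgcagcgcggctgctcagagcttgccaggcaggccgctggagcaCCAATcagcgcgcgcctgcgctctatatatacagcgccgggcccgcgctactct
Hist1h1b: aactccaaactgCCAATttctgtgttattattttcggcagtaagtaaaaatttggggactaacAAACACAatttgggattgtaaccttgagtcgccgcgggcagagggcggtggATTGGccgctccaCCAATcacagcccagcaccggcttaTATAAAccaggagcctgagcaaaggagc
Hist1h1a: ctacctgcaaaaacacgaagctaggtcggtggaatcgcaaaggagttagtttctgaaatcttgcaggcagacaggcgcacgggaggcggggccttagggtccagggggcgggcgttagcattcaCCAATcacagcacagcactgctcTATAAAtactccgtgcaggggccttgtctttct

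Within the whole window of 250 bases before and 50 after the start, AAACACA was found in 5 of the 6 Hist1h1 promoters, between -122 and -112, against 7.14% of 27025 promoters of the same length. Positions give the left end of the match relative to the start. Hist1h1a was the exception. CCAAT was found in all 6 Hist1h1 promoters, at -66 to -51 in each, and in that of H1foo at -86 and -45, against 37.9% of promoters. TATAAA was found in 4 of the 6, at -33 in Hist1h1a, -28 in Hist1h1b, -26 in Hist1h1d and -27 in Hist1h1e, against 14.2% of promoters, and Hist1h1d had it also at -153 and -145. The E-box letters CANNTG, present in 72.1% of promoters, were at -66 in H1foo, and the homeobox letters TAATTA and TAATTG were absent from its window. The windows of H1f0 and H1fx held none of these letters and were rich in G and C (75.0% and 77.7%, against 45.7% to 54.7% in the other 7). A match is a description of the letters and not a binding site. All matches were searched on both strands, and 1 pair overlapped, AAACACA and CANNTG in Hist1h1t.

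**Figure D1:**
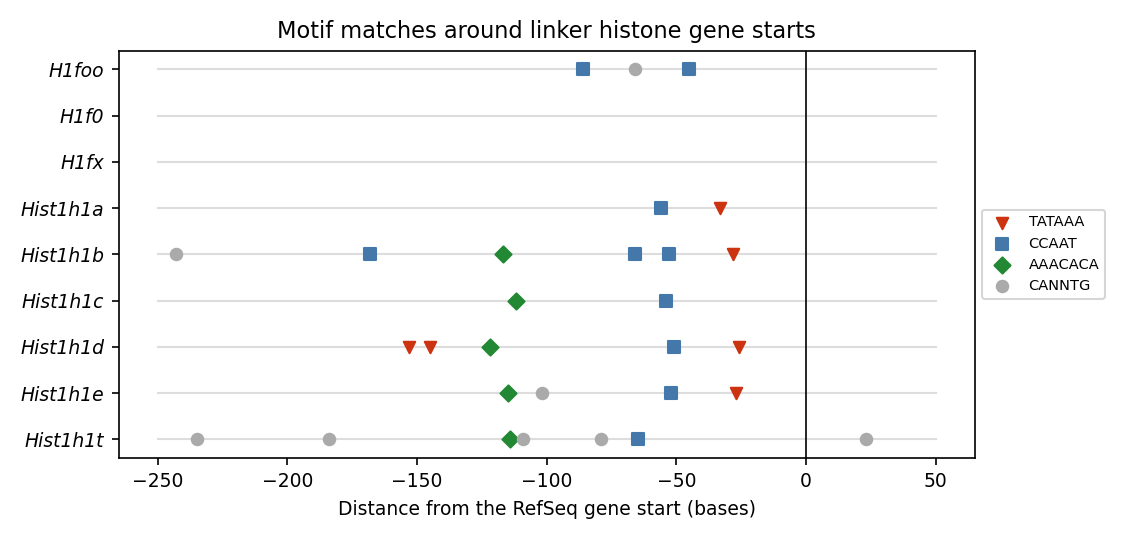
Matches to 4 motifs around the RefSeq starts of the 9 linker histone genes, with the distance of the left end of each match from the start in bases on the horizontal axis and 1 line per gene. AAACACA (green diamonds) sits between -122 and -112 in 5 Hist1h1 genes, CCAAT (blue squares) at -66 to -51 in all 6, and H1f0 and H1fx have no match.

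The deposited tables hold 1 FPKM value (fragments scaled by gene length and by library size) for a gene in each cell type, pooled by the authors over the libraries. With 1 value per cell type and the authors' own test columns not used, no difference below was tested against the spread between libraries. A gene was called higher or lower past a 2-fold ratio of FPKM + 1, where it had at least 1 FPKM in either cell type. In bulk RNA, fewer cells of a type and less RNA per cell cannot be told apart. Depth is unknown, since no counts are in the tables, and summed FPKM ran from 417955 in FGSCs to 1232440 in MII oocytes. Of the 9 members, 6 reached 1 FPKM in E12.5 PGCs, 7 in FGSCs, 6 in GV oocytes and 5 in MII oocytes, against 28.6% to 31.9% of all genes. H1foo has no value in MII oocytes and could not be counted there.

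The cell types were checked against marker lists. The 9 oocyte genes (zona pellucida proteins, Gdf9, Oosp1 and others) were at a summed 16.7 FPKM (E12.5 PGCs), 16.1 FPKM (FGSCs), 10651 FPKM (GV oocytes) and 26250 FPKM (MII oocytes), with none at 0. The larger sum in MII oocytes did not hold gene by gene. Against GV oocytes, 3 of the 9 were higher and 5 lower, where 39.3% and 30.5% of all genes were, with a median log2 ratio of -1.75. Zp3 was at 4780 FPKM in GV and 790 FPKM in MII oocytes, Gdf9 at 2093 and 12412 FPKM and Oosp1 at 392 and 9696 FPKM. The 7 germ cell genes summed to 1443, 688, 4685 and 11274 FPKM in the same order of cell types, with none at 0. Dppa3 held most of each sum, at 1288, 462, 4211 and 10134 FPKM. Ddx4, the germ cell gene Mvh, went down in that order, at 64.0, 59.0, 31.9 and 17.2 FPKM. GV oocytes had 6 of the 7 higher and 0 lower against E12.5 PGCs (34.3% and 31.3% of all genes). MII oocytes had 2 higher and 2 lower against GV oocytes (39.3% and 30.5%). Blood and somatic markers were also present in the sorted cells. The sum of 8 erythroid genes was 16150 FPKM in PGCs at E12.5 and 6316 FPKM in FGSCs, against 45.3 in GV and 3.74 in MII oocytes, where 6 of the 8 were at 0. Most of it lay in the globin genes Hba-x (10452 FPKM in E12.5 PGCs and 1599 FPKM in FGSCs) and Hbb-y (3378 and 3273 FPKM). The source of this RNA in FGSCs was not tested. The 10 granulosa genes summed to 130, 268, 66.6 and 89.5 FPKM and the 8 mesenchymal genes to 222, 130, 45.3 and 9.94 FPKM. Within the granulosa list the genes differed. Wt1, a marker of supporting cells, was at 61.3, 113, 5.10 and 0.124 FPKM in the order of development and Fst, an activin antagonist, at 22.8, 45.3, 5.10 and 0.0982 FPKM. Cyp19a1 (aromatase) was at 0.0205, 0.0260, 0.379 and 68.2 FPKM and held most of the sum in MII oocytes. Inha was highest in GV oocytes, at 43.6 FPKM. The 6 endothelial genes summed to 42.4, 45.7, 4.95 and 45.9 FPKM, of which Pecam1 alone held 43.6 FPKM in MII oocytes, where Emcn was at 0.146 FPKM and Cdh5 at 0. The sums were 9.64, 9.63, 1.36 and 10.1 FPKM over the 6 leukocyte genes and 72.2, 123, 95.0 and 2.52 FPKM over the 6 surface epithelial genes. The part of these cells in the linker histone values of E12.5 PGCs and FGSCs was not tested.

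**Figure D2:**
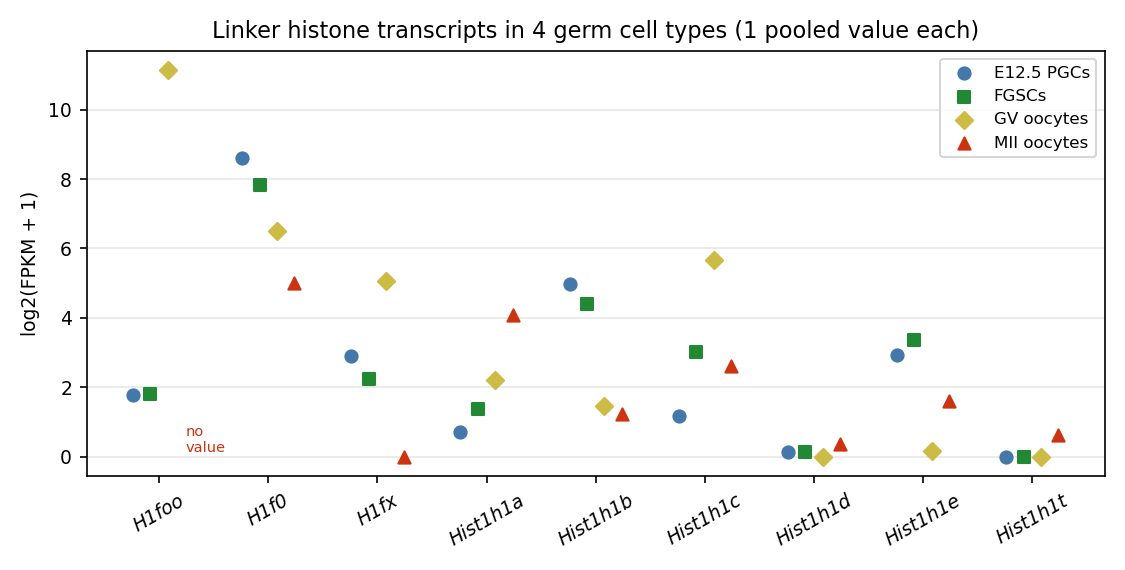
Level of each linker histone gene, as log2(FPKM + 1) on the vertical axis in the 4 cell types, with 1 point per pooled value and no error available. H1foo stands apart at 2248 FPKM in GV oocytes and has no value in MII oocytes, and H1f0 goes down from 390 FPKM in E12.5 PGCs to 30.9 FPKM in MII oocytes.

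H1foo (ENSMUSG00000042279, chr6:115894956-115900254 in mm9, as are all gene spans below), the oocyte linker histone, was at 2.41 FPKM in E12.5 PGCs, 2.49 FPKM in FGSCs and 2248 FPKM in GV oocytes. It was low and within 2-fold in both early cell types, at rank 9147 and 9598 among all genes, and ranked 17 in GV oocytes. The FPKM ratio of GV oocytes was 933 to E12.5 PGCs and 901 to FGSCs. As log2 ratios of FPKM + 1 these were 9.36 and 9.33. Oocyte marker genes were also low in both early cell types. Zp3 was at 6.80 FPKM in E12.5 PGCs, 6.49 FPKM in FGSCs and 4780 FPKM in GV oocytes, and all 9 oocyte markers were higher in GV oocytes than in either. The source of this early RNA, for H1foo as for these genes, was not tested, so the ratios rest on early values of uncertain origin. In MII oocytes H1foo has no value: it is listed at 0 with the mark that Cufflinks gives to loci with too many fragments to estimate, as is 1 other gene, Spin1. H1foo was therefore left out of every comparison with MII oocytes. Its FPKM there cannot be read from the tables, and the listed 0 is not a measured absence.

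The genes nearest to H1foo, by Euclidean distance of log2(FPKM + 1) over the other 3 cell types among 16255 genes, were Npm2 (distance 0.17), Gdf9 (0.18), Zar1 (0.54), Pkd2l2 (0.64) and Gm15698 (0.65). Npm2, a nucleoplasmin that stores and exchanges histones in the egg, had 2.44, 2.66 and 2017 FPKM in the order of development up to GV oocytes. Gdf9, the growth factor that oocytes send to granulosa cells, was at 2.79, 2.49 and 2093 FPKM. Zar1, an RNA-binding protein of maternal effect, was at 1.59, 1.86 and 1942 FPKM. In MII oocytes, which the distance did not use, these genes diverged, with Npm2 at 617 FPKM, Zar1 at 2036 FPKM and Gdf9 at 12412 FPKM.

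H1f0 (ENSMUSG00000048769, chr15:78859152-78859689), the replacement form that builds up in cells that divide little, was at 390 FPKM in E12.5 PGCs, 228 FPKM in FGSCs, 89.4 FPKM in GV oocytes and 30.9 FPKM in MII oocytes. Each step in this order was down, and the lowest and highest values lay 12.6-fold apart. Its rank among all genes went from 329 in E12.5 PGCs and 308 in FGSCs to 1159 in GV oocytes and 3679 in MII oocytes. The log2 ratio of FPKM + 1 to E12.5 PGCs was -0.77 in FGSCs, which is within 2-fold, -2.11 in GV oocytes and -3.62 in MII oocytes. The step from GV to MII oocytes was -1.50. The erythroid marker sum given above (16150, 6316, 45.3 and 3.74 FPKM) followed the same order, and its part in the level of H1f0 was not tested. The gene spans 538 bases in the tables, where the GENCODE M21 transcript has 2055 bases, so its FPKM rests on a short model and its level next to other genes is uncertain.

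The genes nearest to H1f0 over the 4 cell types were Ywhaq (distance 0.22), Etfb (0.71), Pdia3 (0.74), Atp5g3 (0.81) and Psmc4 (0.83). Ywhaq, a 14-3-3 adaptor protein, was at 362, 252, 95.3 and 29.1 FPKM in the order of development. The others encode a mitochondrial electron carrier, a disulfide isomerase of the endoplasmic reticulum, a subunit of ATP synthase and a proteasome subunit.

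H1fx (ENSMUSG00000044927), the other replacement form, was at 6.43 FPKM in E12.5 PGCs, 3.73 FPKM in FGSCs and 32.3 FPKM in GV oocytes, and was listed at 0 in MII oocytes. GV oocytes were highest, 5.02-fold above E12.5 PGCs and 8.65-fold above FGSCs. In the tables H1fx shares its span, chr6:87930416-87995264, with Rab7, a GTPase of late endosomes, and Gm5577, so its value is uncertain. Rab7 was at 141, 60.8, 74.3 and 866 FPKM and Gm5577 at 3.66, 2.40, 0.834 and 0.943 FPKM in the order of development. Among genes with at least 1 FPKM in the other 3 cell types, 76 of 3712 genes that share a span (2.05%) and 111 of 4796 with a span of their own (2.31%) were listed at 0 in MII oocytes. These shares take no account of the level of the gene that shares the span. The part of the shared span in the 0 of H1fx was not tested. No fold is given for H1fx in MII oocytes.

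Of the replication-dependent genes, Hist1h1c (H1.2, ENSMUSG00000036181, chr13:23830676-23832235) had the highest level in GV oocytes. It was at 1.24 FPKM in E12.5 PGCs, 7.12 FPKM in FGSCs, 49.9 FPKM in GV oocytes and 5.14 FPKM in MII oocytes. GV oocytes stood 40.1-fold above E12.5 PGCs and 7.01-fold above FGSCs, and MII oocytes 9.71-fold below GV oocytes. Hist1h1c was also the only member past 2-fold between FGSCs and E12.5 PGCs, with a log2 ratio of 1.86 (5.72-fold in FPKM), although without the pseudocount Hist1h1a was past it as well (2.41-fold). The genes nearest to it were Reep2 (distance 0.71), Polrmt (0.72), Ino80b (0.79), Adad2 (0.81) and Supt3h (0.85). Polrmt, the mitochondrial RNA polymerase, was at 0.608, 7.19, 68.3 and 6.48 FPKM.

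Hist1h1a (H1.1, ENSMUSG00000049539, chr13:23855537-23856283) had another order, at 0.661 FPKM in E12.5 PGCs, 1.59 FPKM in FGSCs, 3.63 FPKM in GV oocytes and 16.0 FPKM in MII oocytes. Its highest value was in MII oocytes, 24.3-fold above E12.5 PGCs and 4.41-fold above GV oocytes. It was the only somatic H1 gene with a value that was higher at each step in the order listed. Of its nearest genes, Gm20517 (distance 0.40) was at 0.456, 1.23, 2.88 and 17.6 FPKM. Uggt2 (0.52), Tmem194b (0.53), Cnst (0.54) and Ddr2 (0.57) followed, all at 13.7 to 22.0 FPKM in MII oocytes.

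Hist1h1b (H1.5, ENSMUSG00000058773, chr13:21871752-21872494) and Hist1h1e (H1.4, ENSMUSG00000051627, chr13:23713624-23714371) were lower in oocytes than in both early cell types. Hist1h1b was at 30.7 FPKM in E12.5 PGCs, 20.0 FPKM in FGSCs, 1.76 FPKM in GV oocytes and 1.38 FPKM in MII oocytes. Both oocyte values were low and within 2-fold of each other, and GV oocytes were 17.4-fold below E12.5 PGCs and 11.4-fold below FGSCs. Hist1h1e was at 6.66 FPKM in E12.5 PGCs, 9.22 FPKM in FGSCs, 0.127 FPKM in GV oocytes and 2.06 FPKM in MII oocytes. Its value was lowest in GV oocytes, 52.5-fold below E12.5 PGCs and 72.7-fold below FGSCs in FPKM, and was 16.2-fold higher in MII than in GV oocytes. On the scale of log2(FPKM + 1), which shrinks ratios of low values, those differences were -2.76, -3.18 and 1.44.

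Hist1h1d (H1.3, ENSMUSG00000052565, chr13:23646901-23650721) and Hist1h1t (ENSMUSG00000036211, chr13:23787680-23788588) stayed under 1 FPKM in all 4 cell types and entered no call. Hist1h1d was at 0.111, 0.103, 0.00558 and 0.284 FPKM in the order of development. Hist1h1t was listed at 0 in E12.5 PGCs, FGSCs and GV oocytes and was at 0.553 FPKM in MII oocytes. H1fnt and Hils1, the linker histones of spermatids, were listed at 0 in all 4 cell types. The coding sequences of the Hist1h1 genes resemble each other, so reads may have been split between them, and the tables' span of Hist1h1e (748 bases) and Hist1h1d (3821 bases) differs from the GENCODE M21 transcripts (1930 and 7425 bases).

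FPKM is scaled by gene length, and sums and shares over members therefore rest on the gene lengths, which are in doubt for H1f0, Hist1h1d, Hist1h1e and H1fx as said above. At the lengths behind the tables, the sum of the members was 438 FPKM in E12.5 PGCs, 272 FPKM in FGSCs and 2425 FPKM in GV oocytes. H1f0 held 89.0% of it in E12.5 PGCs and 83.7% in FGSCs, where H1foo held 0.551% and 0.916%. In GV oocytes the order was turned, with 92.7% in H1foo and 3.69% in H1f0. Without H1foo, which lets MII oocytes enter, the sum was 435, 269.7, 177 and 56.3 FPKM in the order of development, down at each step, except that with FPKM scaled to the same total FGSCs (645) were above E12.5 PGCs (632) and that at the lengths given next GV oocytes were above FGSCs. H1f0 made up 89.5%, 84.5%, 50.5% and 54.8% of this sum, and the 6 Hist1h1 genes made up 9.04%, 14.1%, 31.3% and 45.2%. These shares turn on the length of H1f0. With H1f0 and the Hist1h1 genes rescaled from the span in the tables to the GENCODE M21 transcript, an alternative chosen after seeing the data, the sum without H1foo was 144, 95.8, 111 and 32.2 FPKM, and H1f0 made up 71.0%, 62.3%, 21.1% and 25.1% of it. H1f0 then lay below Hist1h1c (44.9%) and H1fx (29.1%) in GV oocytes and below Hist1h1a (50.1%) in MII oocytes. It kept the largest share in E12.5 PGCs and FGSCs. The rescaling counted no fragments from bases outside the span, so the level of a gene with a longer transcript, such as H1f0, could only fall. H1fx was not rescaled. The rescaled level of H1f0 is thus only approximate, and its place among these genes in oocytes stays uncertain. In level the Hist1h1 genes summed to 39.4, 38.1, 55.4 and 25.4 FPKM, highest in GV and lowest in MII oocytes under each scaling, so the order of their shares was not that of their levels.

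Which Hist1h1 gene was foremost changed with the cell type, in the same way at either set of lengths. Hist1h1b held 7.05% of the sum without H1foo in E12.5 PGCs and 7.43% in FGSCs, more than any other Hist1h1 gene there. Hist1h1c held 28.2% in GV oocytes, against 0.286% in E12.5 PGCs. Hist1h1a held 28.5% in MII oocytes, where Hist1h1c was down to 9.12%. The share of H1fx was 18.2% in GV oocytes and at most 1.48% elsewhere.

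**Figure D3:**
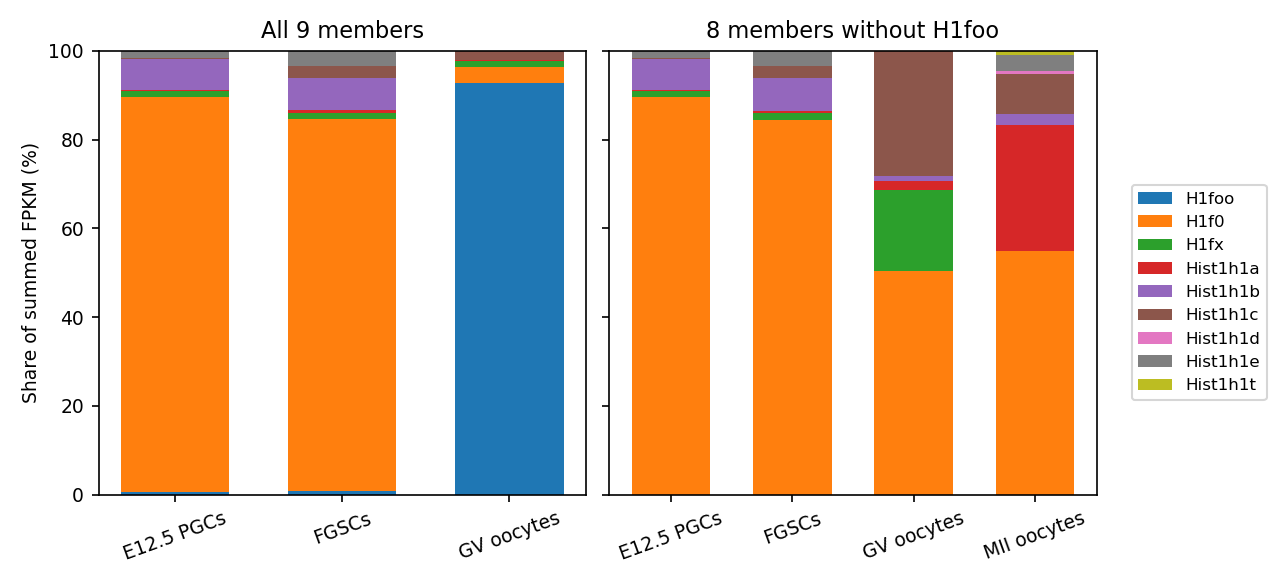
Share of each linker histone gene in the summed FPKM of the family at the lengths behind the tables (vertical axis, percent), for all 9 genes in the 3 cell types where H1foo has a value (left) and for the 8 genes other than H1foo in all 4 cell types (right). H1f0 fills 89.0% of the left bar in E12.5 PGCs and H1foo 92.7% in GV oocytes, and on the right Hist1h1c takes 28.2% in GV oocytes and Hist1h1a 28.5% in MII oocytes.

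Of the 6 comparisons, FGSCs against E12.5 PGCs had the fewest members past 2-fold. Of 7 members with at least 1 FPKM in either, 1 was higher in FGSCs (Hist1h1c), against 24.8% of all 13169 genes, and 0 were lower, against 21.0%. The median log2 ratio of the members was 0.04, and that of all genes -0.09.

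GV oocytes differed from E12.5 PGCs by more than 2-fold in all 7 members measured. H1foo, H1fx, Hist1h1a and Hist1h1c were higher, 4 of 7 against 34.3% of all genes, and H1f0, Hist1h1b and Hist1h1e were lower, 3 of 7 against 31.3%. Against FGSCs, 3 of 7 were higher (H1foo, H1fx and Hist1h1c), against 28.1% of all genes, and the same 3 as before were lower, against 28.0%. Hist1h1a was within 2-fold there on FPKM + 1, but its FPKM ratio was 2.28, and it was past 2-fold with a pseudocount of 0.1 FPKM or none. The median log2 ratio of the members was 1.48 against E12.5 PGCs and 0.84 against FGSCs, with all genes at 0.01 and -0.05. Without H1fx, whose value is uncertain, these medians were -0.32 and -0.25. A median of so few members can turn when any gene is left out, and H1fx was the only gene for which this was run. Both comparisons share the GV oocyte libraries.

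MII oocytes were lower than E12.5 PGCs in 4 of 6 members, against 34.6% of all genes, and higher in 2 (Hist1h1a and Hist1h1c), against 44.8%. The lower ones were H1f0, Hist1h1b, Hist1h1e and, as it is listed at 0, H1fx. Against FGSCs the same 4 were lower, against 35.3% of all genes, and Hist1h1a was higher, against 41.3%. The median log2 ratio of the members was -2.11 and -1.99, where that of all genes was 0.54 and 0.30. Without H1fx the medians were -1.33 and -1.74.

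From GV to MII oocytes, H1f0, Hist1h1c and H1fx were lower, 3 of 6 against 30.5% of all genes, and Hist1h1a and Hist1h1e were higher, 2 of 6 against 39.3%. Hist1h1b was within 2-fold. The median log2 ratio of the members was -0.86 and that of all genes 0.37, and without H1fx the members' median was -0.22. With so few members, these counts are no more than a description beside the shares of all genes.

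**Figure D4:**
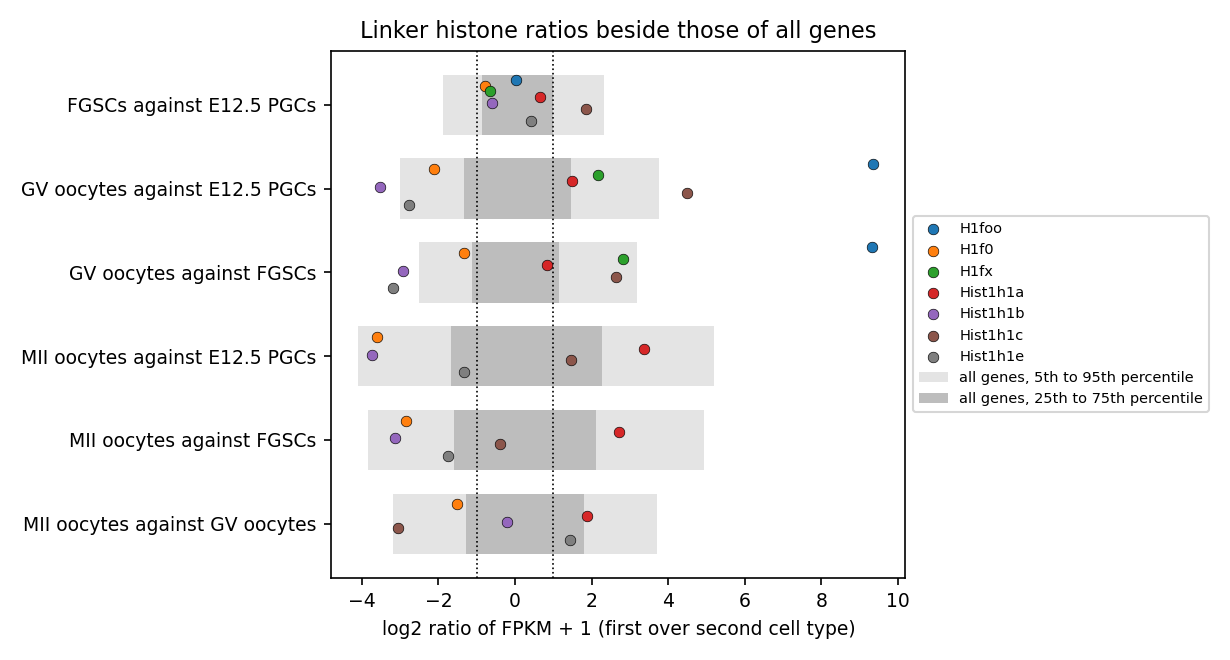
Log2 ratio of FPKM + 1 (horizontal axis) of each linker histone gene with at least 1 FPKM in either cell type, for the 6 comparisons of cell types, over grey bars for the ratios of all genes (5th to 95th and 25th to 75th percentile), with dotted lines at 2-fold. H1foo lies at 9.36 and 9.33 in GV oocytes, far right of both bars, and H1f0 lies left of 2-fold in every comparison but the top one. H1fx is not drawn where it is listed at 0.

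Histone chaperones carry H1 to and from chromatin. Against E12.5 PGCs, 1 of 9 chaperone genes was higher in GV oocytes and 4 were lower (all genes 34.3% and 31.3%), and against FGSCs 1 was higher and 3 were lower (28.1% and 28.0%). Npm2, described above beside H1foo, was the higher one. Npm1, the nucleolar nucleophosmin, was at 1006, 706, 255 and 1753 FPKM in the order of development. Set, an acidic chaperone and phosphatase inhibitor, was at 1444, 556, 65.8 and 12.8 FPKM, lower at each step as H1f0 was. MII oocytes had 1 chaperone higher and 3 lower against E12.5 PGCs (all genes 44.8% and 34.6%), and 2 higher and 3 lower against both FGSCs (41.3% and 35.3%) and GV oocytes (39.3% and 30.5%). FGSCs against E12.5 PGCs had 0 higher and 1 lower (24.8% and 21.0%).

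High mobility group proteins and Parp1 occupy the same linker DNA or nucleosome sites as H1. Of these 10 genes, GV oocytes had 8 lower and 1 higher against E12.5 PGCs, where 31.3% and 34.3% of all genes were, and 7 lower and 0 higher against FGSCs, where 28.0% and 28.1% were. MII oocytes had 6 lower and 0 higher against either early cell type, with all genes at 34.6% and 44.8% (E12.5 PGCs) and 35.3% and 41.3% (FGSCs). Against GV oocytes MII oocytes had 4 higher and 4 lower, with all genes at 39.3% and 30.5%. Their summed level was 6627, 2787, 996 and 905 FPKM in the order of development. Hmgn2, which binds the nucleosome core, was at 4005, 1104, 258 and 117 FPKM. Hmgb1, which bends linker DNA, was at 1139, 689, 176 and 265 FPKM, and Hmgn1 at 918, 352, 152 and 84.2 FPKM. FGSCs against E12.5 PGCs had 2 higher and 3 lower (all genes 24.8% and 21.0%).

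The machinery that makes replication-dependent histone mRNA was followed through 14 genes. Slbp, the protein that binds the stem-loop shown above, was at 300 FPKM in E12.5 PGCs, 171 FPKM in FGSCs, 307 FPKM in GV oocytes and 5929 FPKM in MII oocytes. The FPKM in MII oocytes was thus far above the other 3. The part of oligo(dT) priming in differences between GV and MII oocytes was not tested for any gene. Casp8ap2 (FLASH), which works with the U7 particle in cutting histone pre-mRNA, was at 5.59, 11.0, 5.05 and 229 FPKM, and Lsm10, a protein of that particle, at 103, 37.0, 186 and 60.1 FPKM. Of the 14 genes, MII oocytes had 6 higher and 5 lower against either early cell type, shares near those of all genes (44.8% and 34.6% against E12.5 PGCs, 41.3% and 35.3% against FGSCs). They had 6 higher and 3 lower against GV oocytes (39.3% and 30.5%). GV oocytes had 3 higher and 4 lower against E12.5 PGCs (34.3% and 31.3%) and 4 higher and 7 lower against FGSCs (28.1% and 28.0%). FGSCs against E12.5 PGCs had 1 higher and 1 lower (24.8% and 21.0%).

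The 65 replication-dependent core histone genes, most of which hold the stem-loop, summed to 184 FPKM in E12.5 PGCs, 183 FPKM in FGSCs, 273 FPKM in GV oocytes and 599 FPKM in MII oocytes, where the Hist1h1 genes summed to 39.4, 38.1, 55.4 and 25.4 FPKM. The core genes were taken by symbol, and few of them held most of the sum in oocytes. Hist1h2bc was at 156 FPKM in GV and 302 FPKM in MII oocytes, and Hist1h2aa at 3.79 and 138 FPKM. With FPKM scaled to the same total, the core sum was 487 FPKM in GV and 486 FPKM in MII oocytes. In MII oocytes 10 of 22 measured core genes were higher and 2 lower than in GV oocytes, beside 39.3% and 30.5% of all genes, and 2 of the 4 measured Hist1h1 genes were higher and 1 lower.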

How the data were processed

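RNA-seq libraries were grouped into the 4 cell types by their labels. The FPKM values were made by the authors before deposition, and the submitters' processing notes name TopHat2, Cufflinks 2.2.1 and the mm9 build, where the study's methods name Trimmomatic, Tophat2, Cufflinks and mm10. Coordinates in the tables are of mm9 and identifiers of Ensembl. The labels describe oligo(dT) priming of cell lysates, and the study's methods purified mRNA.

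The authors deposited 6 tables, 1 per pair of cell types, with 1 FPKM per cell type pooled over its libraries. The columns of log2 fold change, test statistic, p-value and q-value hold the authors' own comparisons and were not used. No column was without a cell type. The value of a cell type was the same in every table.

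Ratios were computed as log2(FPKM + 1), with genes of at least 1 FPKM in either cell type and a 2-fold threshold (Python 3.11.15, pandas 2.3.3, numpy 2.4.6, figures in matplotlib 3.10.9). Failed estimates listed at 0 were set as missing. No p-value was computed, since there is 1 value per cell type. The tables hold no counts, so precision set by depth was not estimated. Promoters were taken from RefSeq (GRCm38.p6) and transcript ends from GENCODE M21, by letters only. The calculations were tested on simulated data. Genes named were to be the 9 members, H1fnt and Hils1, the 3 highest of each list, and the 5 genes nearest to H1foo, H1f0, Hist1h1c and Hist1h1a. Marker lists are given mainly as sums, without naming all 3. Spin1, Rab7, Gm5577, Inha, Cdh5 and Ddx4 were named after their values were seen. Lists cover H1 chaperones, high mobility group proteins with Parp1, histone mRNA processing, replication-independent histone variants, S phase, core histones and markers of germ cells, oocytes and other ovarian cells. The leukocyte list had 7 symbols, of which 6 were found. Members and lists were chosen with earlier results of these data known. Alternatives covered the pseudocount, the filter, the fold, scaling, repeated symbols and the source table. Failed estimates at 0, the removal of H1fx, transcript lengths in place of spans, and members with a poly(A) signal alone were added after seeing the data.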

Additional observations from a re-analysis of the deposited data

How the results depend on the processing

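No paired analysis was possible because the tables hold 1 pooled value per cell type, and for the same reason no replicate could be left out. No member past 2-fold changed direction under the alternatives run. The 1 member higher in FGSCs than in E12.5 PGCs became 2 with a pseudocount of 0.1 FPKM, with none and at 1.5-fold, 0 at 4-fold and 3 with FPKM scaled to the same sum, and the 0 lower there became 3 at 1.5-fold. The 3 members higher in GV oocytes than in FGSCs became 4 with a pseudocount of 0.1 FPKM, with none and at 1.5-fold. The 2 members higher in MII oocytes than in E12.5 PGCs became 1 at 4-fold and with FPKM scaled to the same sum. The 2 higher in MII than in GV oocytes became 1 with at least 5 FPKM, 0 at 4-fold and 1 with FPKM scaled to the same sum. The share of H1f0 in MII oocytes, 54.8%, became 100% over the replacement forms H1f0 and H1fx alone, since H1fx is listed at 0 there, and, in alternatives chosen after seeing the data, 84.4% over the members with a poly(A) signal and 25.1% with transcript lengths in place of spans. These settings change the threshold, filter, scale, length or set of genes itself.

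Scaling to the same sum moved the median log2 ratio of all genes from -0.09 to 0.67 for FGSCs against E12.5 PGCs, from 0.01 to 0.38 and -0.05 to -0.50 for GV oocytes against E12.5 PGCs and FGSCs, and from 0.54 to -0.36, 0.30 to -1.16 and 0.37 to -0.77 for MII oocytes against E12.5 PGCs, FGSCs and GV oocytes. The share of higher among all calls went from 54.2% to 81.9% (FGSCs against E12.5 PGCs), 50.1% to 38.0% (GV oocytes against FGSCs), 56.4% to 45.7% (MII oocytes against E12.5 PGCs), 53.9% to 31.9% (against FGSCs) and 56.3% to 34.3% (against GV oocytes). Depth cannot be read from the tables, so values near 1 FPKM, as of Hist1h1a in E12.5 PGCs and Hist1h1b in oocytes, have no known precision.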

Other observations

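Histone variants that, like H1f0, are made outside S phase were not all low in oocytes. Of 9 replication-independent variant genes, FGSCs had 2 higher and 5 lower against E12.5 PGCs (24.8% and 21.0% of all genes), GV oocytes 0 higher and 6 lower against E12.5 PGCs (34.3% and 31.3%), and MII oocytes 3 higher and 3 lower against GV oocytes (39.3% and 30.5%). H3f3b, which encodes H3.3, was at 6577 FPKM in E12.5 PGCs, 1153 FPKM in FGSCs, 664 FPKM in GV oocytes and 6498 FPKM in MII oocytes. Its partner gene H3f3a was at 449, 387, 446 and 2573 FPKM in that order. H2afz, which encodes H2A.Z, was at 2368, 1030, 268 and 259.6 FPKM, and so followed the downward order of H1f0. Against FGSCs, GV oocytes had 0 higher and 4 lower (28.1% and 28.0%) and MII oocytes 2 higher and 6 lower (41.3% and 35.3%), and against E12.5 PGCs, MII oocytes had 1 higher and 5 lower (44.8% and 34.6%).

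Genes of S phase, when the Hist1h1 genes are transcribed in dividing cells, were counted over a list of 12. GV oocytes had 1 higher and 8 lower against E12.5 PGCs (34.3% and 31.3% of all genes), and 1 higher and 4 lower against FGSCs (28.1% and 28.0%). MII oocytes had 7 higher and 2 lower against GV oocytes (39.3% and 30.5%), 7 higher and 3 lower against FGSCs (41.3% and 35.3%), and 3 higher and 5 lower against E12.5 PGCs (44.8% and 34.6%). FGSCs against E12.5 PGCs had 1 higher and 5 lower (24.8% and 21.0%). Pcna, the clamp of the replication fork, was at 329, 126, 76.9 and 526 FPKM in the order of development, where Hist1h1b was at 30.7, 20.0, 1.76 and 1.38 FPKM. Ccna2, a cyclin of S phase and mitosis, was at 39.3, 60.5, 32.3 and 438 FPKM, and Tyms, which makes thymidylate, at 264, 92.1, 113 and 16.8 FPKM.

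Among the core histone genes, Hist1h2bc was at 12.7, 19.2, 156 and 302 FPKM in the order of development and Hist3h2ba at 13.5, 15.7, 35.3 and 38.1 FPKM. Hist1h2aa, a variant known from the testis and oocyte, was listed at 0 in E12.5 PGCs and FGSCs and was at 3.79 FPKM in GV oocytes and 138 FPKM in MII oocytes. Higher and lower core genes numbered 11 and 6 of 32 for FGSCs against E12.5 PGCs (24.8% and 21.0% of all genes), 11 and 13 of 29 for GV oocytes against E12.5 PGCs (34.3% and 31.3%), and 8 and 17 of 34 against FGSCs (28.1% and 28.0%). For MII oocytes they numbered 16 and 13 of 32 against E12.5 PGCs (44.8% and 34.6%) and 11 and 13 of 36 against FGSCs (41.3% and 35.3%).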
